A study of Mus musculus with 24 samples.

Results

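Pulmonary fibroblasts of wild-type (WT) mice were compared after 24 h with recombinant mouse cold-inducible RNA-binding protein (rmCIRP) or with phosphate-buffered saline (PBS), and the gene groups that rose and fell besides the cytokines Tnf, Il1b and Il6 are described. The members were taken by their labels, genotype wild type with treatment rmCIRP or PBS, which gave 3 and 3 of the 24 libraries in all. The other libraries were WT cells with rmTGF-β1, alone or with rmCIRP, and cells labelled TLR4-/- under the same 4 treatments. All mice were C57BL/6 and 4 to 8 weeks old. The fibroblasts of a genotype came from a pool of 3 to 4 lungs, were grown in medium with serum to passages 3 to 6 and were kept overnight in the low-serum medium Opti-MEM before 1 μg/ml rmCIRP, which the study's laboratory made itself, or PBS was added. Total RNA was then sequenced. Because the labels name no separate animals or cultures for the replicates, p-values measure only the spread between these libraries, which may be technical.

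CIRP is an RNA-binding protein of the nucleus that cold and other stress induce, and it acts as a danger signal when it leaves the cell. Outside the cell it can engage Toll-like receptor 4 (TLR4), a receptor best known for sensing bacterial lipopolysaccharide. TLR4 signals through the adaptor MyD88 to the transcription factor NF-κB, which switches on cytokine and chemokine genes, and through the adaptor TRIF to interferon regulatory factors, which switch on interferons and, through them, antiviral genes. Lung fibroblasts make and remodel the extracellular matrix, can turn into contractile myofibroblasts, and respond to such signals with cytokines of their own.

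Between 31838121 and 34496919 reads were counted on genes in the PBS libraries, and between 32683984 and 34813378 in the rmCIRP libraries. A normalized count is a gene's read count divided by the size factor of its library. Of 16258 genes tested, 43.9% passed an adjusted p of 0.1 in the quasi-likelihood F-test of edgeR (Benjamini-Hochberg), 19.8% being higher and 24.1% lower with rmCIRP, and the median log2 fold change over all of them was -0.02. The groups did not overlap for 50.8% of genes. Higher calls were 45.0% of all calls, but 33.8% when libraries were scaled by upper quartiles. Changes of at least 2-fold on the fitted scale were fewer, at 4.05% of genes upward and 2.23% downward. Each gene list below is read against these shares, and no list was given a test of its own. Of 1212 genes in the 62 lists, 1155 passed the filter on low counts and were tested, with 384 higher and 338 lower. Genes that define fibroblasts were abundant, since Col1a1 had 243961, 246260 and 236246 normalized counts in the PBS libraries, and Pdgfra had 7060.3, 8773 and 7773. Genes of macrophages were present as well. The summed normalized count of 18 macrophage identity genes was between 90903 and 98696 with PBS and between 78304 and 82867 with rmCIRP, and none of the 18 was at 0. Most of that sum was Lyz2, whose counts are given further below. The part of these 18 genes in the results below was not tested. In bulk RNA, fewer cells of a type and less RNA per cell cannot be told apart.

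Promoter sequence is shown for 4 of the genes described below, because the lists that rose are known targets of NF-κB and of interferon-activated factors and the list of sterol genes that fell is a known target of SREBP factors. Each line is the 250 bases before the transcription start of the RefSeq gene in GRCm38.p6, written on the strand of the gene. The capitals mark only the match to the motif for which the gene was chosen. The motif searched on both strands was GGGA, any base and TTTCC for NF-κB, GAAA, any 2 bases and GAAA for the core of the interferon-stimulated response element, and TCAC, any base and CCAC for the sterol regulatory element. The E2F site TTTCCCGC and the CLEAR E-box TCACGTGA of lysosomal genes were searched as well and are not shown. The Gbp5 window, chr3:142496684-142496933 on the plus strand, holds the NF-κB motif in reverse complement. It also holds the interferon core in reverse complement, left in small letters as tttcaatttc. The Cxcl2 window is chr5:90903649-90903898 on the plus strand, and the Cxcl10 window is chr5:92348890-92349139 on the minus strand. The Hmgcs1 window is chr13:119690101-119690350 on the plus strand.
Gbp5: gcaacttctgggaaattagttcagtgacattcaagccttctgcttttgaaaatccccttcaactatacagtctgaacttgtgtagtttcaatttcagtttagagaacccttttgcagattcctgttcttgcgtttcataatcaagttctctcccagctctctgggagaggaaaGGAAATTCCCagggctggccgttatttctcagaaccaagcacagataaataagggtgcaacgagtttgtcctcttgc
Cxcl2: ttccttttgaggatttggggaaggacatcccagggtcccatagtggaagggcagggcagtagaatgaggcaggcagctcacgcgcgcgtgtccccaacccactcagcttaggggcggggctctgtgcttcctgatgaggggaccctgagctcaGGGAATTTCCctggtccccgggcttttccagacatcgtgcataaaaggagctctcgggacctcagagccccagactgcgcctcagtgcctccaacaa
Cxcl10: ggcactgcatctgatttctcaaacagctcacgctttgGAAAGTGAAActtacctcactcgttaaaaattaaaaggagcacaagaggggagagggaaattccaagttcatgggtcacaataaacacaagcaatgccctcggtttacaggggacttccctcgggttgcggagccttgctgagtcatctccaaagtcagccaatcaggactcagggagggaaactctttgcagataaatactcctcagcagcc
Hmgcs1: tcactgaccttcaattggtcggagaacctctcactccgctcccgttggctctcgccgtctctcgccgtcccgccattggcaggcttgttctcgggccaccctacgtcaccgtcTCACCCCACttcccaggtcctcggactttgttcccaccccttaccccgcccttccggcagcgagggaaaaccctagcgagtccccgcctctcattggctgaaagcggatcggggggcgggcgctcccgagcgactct

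A promoter window was matched for 11657 of the genes tested, with chromosome 18 left out. These genes had 14896 windows, and a gene counted as holding a motif if any of its windows did. Genes with more windows thus had more chances to match. The NF-κB motif was held by 0.472% of these genes. It was held by 2.25% of the 444 of them higher by a log2 fold change of at least 1. The interferon motif was held by 3.24% of all genes with a window and by 14.6% of those 444. For the 248 genes lower by at least 1, its share was 6.05%. Of the interferon-stimulated genes listed below, 10 of 26 with a window held it, and of the ELR CXC chemokines, 3 of 4 held the NF-κB motif. The sterol motif was held by 1.23% of all genes with a window and by 1 of 17 sterol synthesis genes, Hmgcs1. It was also held by 1 of 22 S phase genes and by 2 of 37 lysosomal genes. The E2F site was held by 1.90% of all genes with a window and by 2 of 22 S phase genes. The CLEAR E-box was held by 1.68% and by 5 of 37 lysosomal genes. These matches describe letters in a window, and binding was not measured.

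The interferon-stimulated genes rose together and by large factors. All 34 members of the type I interferon-stimulated list were tested, and 34 were higher with rmCIRP, against 19.8% of all genes tested, at a median log2 fold change of 4.63. The treatments did not overlap for any of them. The list holds sensors and effectors of antiviral defence. Ifit1, an effector that binds viral RNA, had 78.9, 108 and 74.9 normalized counts in the PBS libraries and 12097, 8855 and 14032 with rmCIRP. Every rmCIRP library was far above every PBS library (log2 fold change 7.05, SE 0.60, adjusted p = 3.18e-09). Isg15, a ubiquitin-like protein that is attached to other proteins during antiviral responses, went from 191, 178 and 138 to 7677, 6447 and 9582 (log2 fold change 5.54, SE 0.43, adjusted p = 7.69e-10). Rsad2, or viperin, which makes a chain-terminating nucleotide, went from 45.2, 26 and 40.6 to 4642, 4424 and 6639 (log2 fold change 7.12, SE 0.42, adjusted p = 5.84e-12). Its groups were as widely separated. Irf7, a transcription factor that amplifies interferon production, had 95.3, 113 and 90.6 normalized counts with PBS and 3613, 2896 and 4482 with rmCIRP (log2 fold change 5.19, SE 0.36, adjusted p = 8.71e-11). Ifit3 and Ifit3b, a near-identical pair whose reads counting may split, had log2 fold changes of 7.38 (SE 0.64) and 7.55 (SE 0.56). The smallest rise on the list was that of Isg20, an exonuclease, at 0.78 (SE 0.10, adjusted p = 1.21e-06).

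The 3 rmCIRP libraries kept the same order across this list. Library 3 had the highest normalized count for 34 of 34 interferon-stimulated genes and library 2 the lowest for 33 of 34, as in the values of Ifit1 and Isg15 above. The same order held for 14 of the 15 called members of the interferon-inducible GTPase list in library 3 and for 14 of 15 in library 2. A like order was seen in other lists. In the class I list, library 3 was highest for 19 of 20 genes and library 2 lowest for 18, in the interleukin list library 3 was highest for 15 of 20 called genes and library 2 lowest for 14, and in the Rel/NF-κB list these counts were 14 and 13 of 18. Library 3 was highest for 12 of 12 called NRF2 targets and for 2 of 4 called ELR CXC chemokines, where library 2 was lowest for 4 of 4. Despite this spread, no rmCIRP library reached down to the PBS range for any interferon-stimulated gene of the list, and no label names a difference between these libraries.

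**Figure D1:**
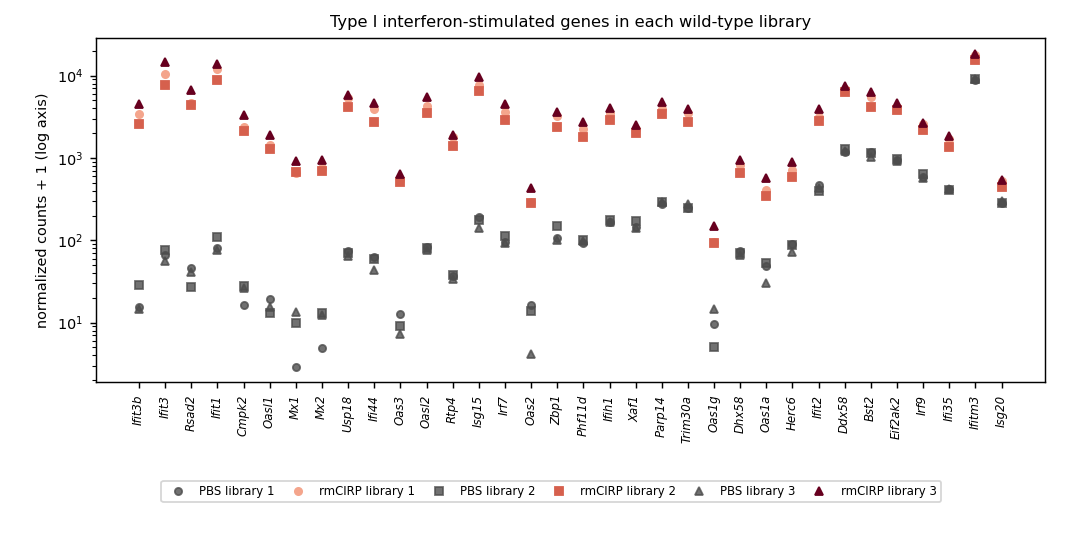
Normalized counts plus 1 (log axis) of the 34 type I interferon-stimulated genes (horizontal axis, in order of fold change) in the 3 PBS libraries (grey) and the 3 rmCIRP libraries (colours), 1 marker per library. The rmCIRP markers lie above the PBS markers for 34 of 34 genes, and rmCIRP library 3 is the highest for 34 of 34.

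Genes of other arms of defence that interferons are known to induce rose as well. Of 16 interferon-inducible GTPases tested, 15 were higher and none lower, with a median log2 fold change of 4.55. These proteins coat and break the compartments in which microbes live. Gbp5, whose promoter is shown above, had 4.81, 18 and 13.5 normalized counts with PBS and 1335, 1161 and 1634 with rmCIRP (log2 fold change 6.82, SE 0.25, adjusted p = 1.63e-15). Its PBS libraries were at a trace level and its rmCIRP libraries were not. Gbp2 had 669, 849.6 and 809.8 with PBS and 7554, 6164 and 8639 with rmCIRP (log2 fold change 3.26, SE 0.18, adjusted p = 2.63e-12). Genes of the guanylate-binding family lie in clusters of close copies, so reads of single members are uncertain. All 20 genes of the MHC class I and immunoproteasome list were higher, at a median of 1.10. Tap1, which pumps peptides into the endoplasmic reticulum, went from 293, 312 and 349.7 to 2033, 1487 and 2265 (log2 fold change 2.60, SE 0.13, adjusted p = 2.49e-13), and the groups did not overlap. B2m, the light chain of class I, rose less, from 14834, 14105 and 14433 to 21304, 19436 and 21645 (log2 fold change 0.52, SE 0.04, adjusted p = 1.53e-09). Nlrc5, the transactivator of class I genes, had a log2 fold change of 3.17 (SE 0.18). Of 7 genes tested in the MHC class II list, 2 were higher and 1 was lower. Of 15 STAT and SOCS genes, 9 were higher and 4 lower. Stat2, a transcription factor of the type I interferon pathway, had 514, 540.1 and 505 normalized counts with PBS and 4982, 4299 and 5496 with rmCIRP (log2 fold change 3.24, SE 0.20, adjusted p = 1.24e-11). Socs1 and Socs3, which shut such signals off, had log2 fold changes of 1.68 and 1.57. Calls among other STAT genes were split, with Stat5a higher at 0.34, Stat5b lower at -0.30 and Stat3 at -0.11, a call that 5 of the alternatives tried did not keep.

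**Figure D2:**
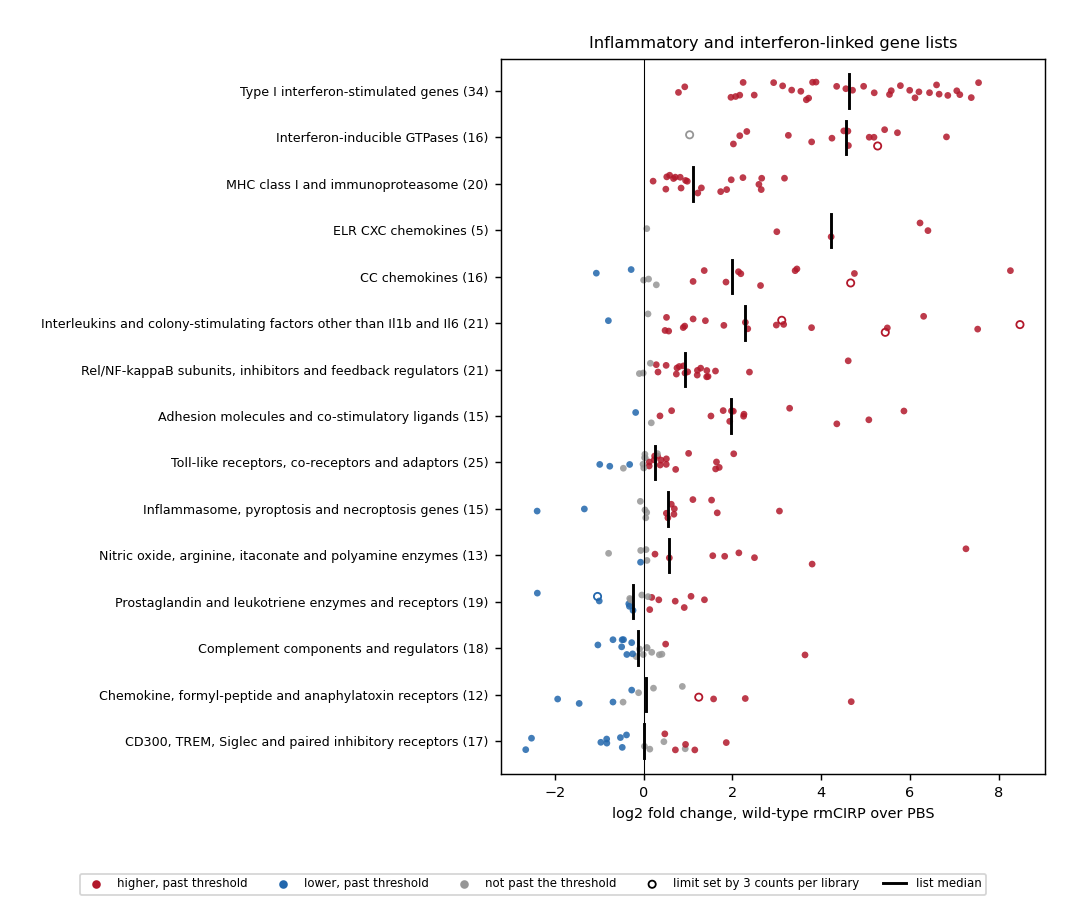
Log2 fold change with rmCIRP against PBS (horizontal axis) of each member tested in 15 inflammatory and interferon-linked gene lists (rows, number tested in brackets), coloured by whether it passed the threshold, with the list median as a bar. Open circles are genes with at most 3 counts in every library of a treatment, drawn at the limit those counts set, and Ltc4s, at that level, is left out. The interferon-stimulated, GTPase and class I lists hold no gene called lower.

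The NF-κB system moved at the level of its own regulators and of its targets. Of 21 Rel/NF-κB subunits, inhibitors and feedback regulators, 18 were higher and none lower, at a median log2 fold change of 0.93, and the groups did not overlap for 19. Nfkbia, the inhibitor IκBα, had 3162, 3728 and 3506 normalized counts with PBS and 10663, 10333 and 11002 with rmCIRP (log2 fold change 1.62, SE 0.10, adjusted p = 1.36e-11). Tnfaip3, the deubiquitinase A20 that ends the signal, went from 705, 825 and 845 to 4085, 4179 and 4159.9 (log2 fold change 2.38, SE 0.16, adjusted p = 4.95e-11). No library crossed between the groups for either gene. Traf1, an adaptor of TNF receptors, rose from 25, 28 and 29.1 to 660.0, 632 and 723 (log2 fold change 4.61, SE 0.17, adjusted p = 2.14e-15). The subunit gene Nfkb1 had a log2 fold change of 1.45 (SE 0.15), whereas Rela, the other subunit of the classical dimer, had 0.28 (SE 0.04).

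Chemokine genes rose in most families. Of 5 ELR CXC chemokines tested, which attract neutrophils, 4 were higher and none lower, with a median log2 fold change of 4.22. Cxcl2 had 127, 202 and 198 normalized counts with PBS and 14534, 14354 and 15762 with rmCIRP (log2 fold change 6.40, SE 0.19, adjusted p = 3.29e-17). Cxcl1 had 639, 1188 and 950.3 with PBS and 17061, 17052 and 17921 with rmCIRP (log2 fold change 4.22, SE 0.40, adjusted p = 1.92e-08). The PBS libraries of Cxcl1 varied more than its rmCIRP libraries, but no library crossed between the groups. Of 16 CC chemokines, 11 were higher and 2 lower. Ccl5, which attracts T cells and monocytes, went from 15.4, 12 and 9.37 to 3635, 3605 and 4275 (log2 fold change 8.26, SE 0.16, adjusted p = 3.66e-20). Ccl2, the main attractant of monocytes, had 10283, 14368 and 13052 normalized counts without rmCIRP and reached 79081, 77002 and 78554 (log2 fold change 2.63, SE 0.18, adjusted p = 1.04e-10). Ccl22 had at most 1 read in each PBS library and 70, 76.1 and 82 normalized counts with rmCIRP, at least 25.3-fold higher against 3 counts per library. Among the other CXC genes, 4 of 7 were higher and 2 lower. Cxcl10, an interferon-induced attractant of T cells, had 30.8, 45.9 and 34.3 normalized counts with PBS and 8530.5, 6249 and 11783 with rmCIRP (log2 fold change 7.89, SE 0.45, adjusted p = 3.83e-12). The 2 that were lower make chemokines of resting tissue. Cxcl12, which holds blood-forming cells in their niche, went from 29076, 31294 and 30932 to 25163, 23688 and 23557 (log2 fold change -0.34, SE 0.08, adjusted p = 0.00243). Cxcl14 went from 9981, 12572 and 11518 to 8832, 8077 and 7000.1 (log2 fold change -0.52, SE 0.10, adjusted p = 0.00032).

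Other cytokine genes were largely higher, as 19 of 21 tested were, with 1 lower and a median log2 fold change of 2.29. Il1a, the interleukin-1 that cells keep stored, had 39.5, 47.9 and 44.8 normalized counts with PBS and 7880.0, 7757 and 8831 with rmCIRP (log2 fold change 7.53, SE 0.21, adjusted p = 2.64e-17). Its antagonist Il1rn rose from 485, 567 and 557 to 3885, 4102 and 4814 (log2 fold change 2.99, SE 0.15, adjusted p = 7.15e-13). Il10, a cytokine that restrains inflammation, had at most 2 reads in each PBS library and 105, 105 and 182 normalized counts with rmCIRP, at least 43.5-fold higher against 3 counts per library. Il12b, the shared subunit of interleukins 12 and 23, had no read in any PBS library and 1227, 893 and 1093 normalized counts with rmCIRP, at least 357-fold higher on the same floor. Csf3, which drives neutrophil production, went from 75.1, 88.9 and 73.9 to 1082, 1042 and 1164 (log2 fold change 3.78, SE 0.12, adjusted p = 8.35e-17). Il33, an alarmin of structural cells, rose with more spread, from 222, 308 and 251 to 684, 511 and 857 (log2 fold change 1.39, SE 0.44, adjusted p = 0.0159). Il16 was the exception, at 43.3, 52.9 and 77 with PBS and 36.1, 27.8 and 35.6 with rmCIRP (log2 fold change -0.80, SE 0.22, adjusted p = 0.00556).

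Surface proteins for contact with leukocytes rose in 13 of 15 cases tested, with 1 lower and a median log2 fold change of 1.98. Icam1, a ligand of leukocyte integrins, had 1057, 1257 and 1298 normalized counts with PBS and 4972, 4647 and 4646 with rmCIRP (log2 fold change 1.98, SE 0.07, adjusted p = 9.77e-16). Vcam1, another such ligand, went from 10633, 14838 and 13408 to 45502, 39666 and 49821 (log2 fold change 1.79, SE 0.17, adjusted p = 3.07e-08). The checkpoint ligand Cd274, or PD-L1, went from 135, 98.8 and 123 to 2328, 2256 and 2729 (log2 fold change 4.35, SE 0.20, adjusted p = 9.38e-14). The groups did not overlap for any of these 3 genes. Cd40, a co-stimulatory receptor, had a log2 fold change of 3.29 (SE 0.10). Cd80 was the member called lower, at -0.18 (SE 0.05).

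**Figure D3:**
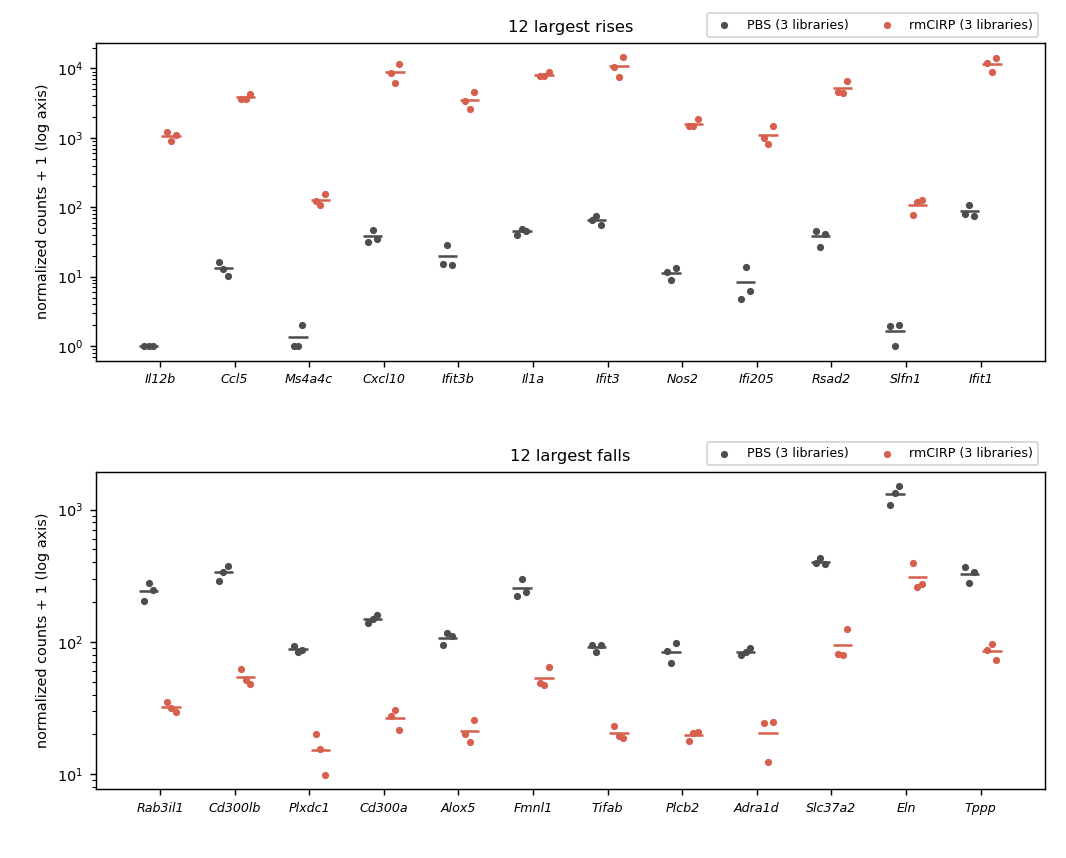
Normalized counts plus 1 (log axis) of the 12 genes with the largest rises (upper panel) and the 12 with the largest falls (lower panel) among genes whose mean was 50 normalized counts or more, with points for the 3 libraries of each treatment and bars for their means. Elastin (Eln) fell from between 1089 and 1502 to between 257 and 395.

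Receptors and sensors changed in a selective way. Of 25 Toll-like receptors, co-receptors and adaptors, 15 were higher and 3 lower, at a median of 0.25. Cd14, which hands lipopolysaccharide to TLR4, had 1403, 1688 and 1616 normalized counts with PBS and 5436, 4614 and 5316 with rmCIRP (log2 fold change 1.70, SE 0.11, adjusted p = 4.68e-11). Tlr2, a receptor of bacterial lipoproteins, and Tlr3, a receptor of double-stranded RNA, had log2 fold changes of 1.62 (SE 0.10) and 2.03 (SE 0.13). Tlr13, a receptor of bacterial ribosomal RNA, moved the other way, from 460.0, 529 and 499 to 246, 217 and 286 (log2 fold change -0.99, SE 0.10, adjusted p = 7.08e-08). The gene of TLR4 itself had a log2 fold change of -0.02 (SE 0.06) and did not pass the threshold. Of 15 inflammasome, pyroptosis and necroptosis genes, 9 were higher and 2 lower. The sensor Nlrp3 had 180.0, 242 and 255 normalized counts with PBS and 1865, 1807 and 1973 with rmCIRP (log2 fold change 3.06, SE 0.11, adjusted p = 2.28e-15), and Casp1 and Casp4 had log2 fold changes of 1.53 and 1.66. The adaptor Pycard, or ASC, which joins the sensor to caspase-1, was lower, from 49.1, 49.9 and 59.3 to 17, 23.7 and 21.7 (log2 fold change -1.34, SE 0.22, adjusted p = 3.79e-05). Its counts were low in all 6 libraries, and the groups did not overlap.

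Genes of enzymes that make small mediators were called in both directions. Of 13 nitric oxide, arginine, itaconate and polyamine genes, 8 were higher and 1 lower. Nos2, the inducible nitric oxide synthase, had 10.6, 7.99 and 12.5 normalized counts with PBS and 1462, 1498 and 1867 with rmCIRP (log2 fold change 7.26, SE 0.18, adjusted p = 2.76e-18). Acod1, which makes itaconate, went from 616, 711 and 742 to 9434, 9064 and 10307 (log2 fold change 3.80, SE 0.09, adjusted p = 2.31e-18). Arginine uptake and use were represented by Slc7a2, a carrier, with a log2 fold change of 2.50 (SE 0.28), and by the arginase genes. Of these, Arg2 was higher at 2.14 (SE 0.27), from low counts with PBS, and Arg1 did not pass the threshold at 0.05 (SE 0.25). Of 19 genes for prostaglandins and leukotrienes, 7 were higher and 6 lower. Ptgs2, the inducible cyclooxygenase, already had 128308, 129178 and 121058 normalized counts with PBS and reached 271309, 255092 and 268798 (log2 fold change 1.07, SE 0.13, adjusted p = 6.27e-07). Ptges, the prostaglandin E synthase that works beside it, went from 8099, 10129 and 8517 to 23467, 21674 and 24163 (log2 fold change 1.37, SE 0.20, adjusted p = 9.6e-06). The leukotriene enzyme Alox5 fell from 94.3, 116 and 109 to 19.1, 16.5 and 24.7 (log2 fold change -2.40, SE 0.16, adjusted p = 5.08e-11). The cyclooxygenase and leukotriene branches thus held genes called in opposite directions. In the complement list, 2 of 18 were higher, Cfb at 3.63 (SE 0.38) and C3 at 0.49 (SE 0.10), and 8 were lower, among them C1qa at -0.50 (SE 0.09) and Masp1 at -1.03 (SE 0.17). Of 11 acute-phase genes tested 6 were higher and none lower, led by Ptx3, a soluble pattern receptor, at 2.11 (SE 0.16).

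Receptors and signalling genes that leukocytes are known to express were among the largest falls. The 12 largest falls were those of Rab3il1, Cd300lb, Plxdc1, Cd300a, Alox5, Fmnl1, Tifab, Plcb2, Adra1d, Slc37a2, Eln and Tppp, at log2 fold changes from -2.96 to -1.95. Of 17 CD300, TREM, Siglec and paired inhibitory receptors, 5 were higher and 8 lower. Cd300a, an inhibitory lipid receptor, had 139, 147 and 159 normalized counts with PBS and 26.5, 29.8 and 20.7 with rmCIRP (log2 fold change -2.53, SE 0.21, adjusted p = 2.43e-09). Trem2, a lipid receptor of macrophages, had a log2 fold change of -0.83 (SE 0.10), and Siglece, an inhibitory receptor of sialic acid, was higher at 1.86 (SE 0.25). Plcb2, a phospholipase C of blood cells, went from 84.7, 67.9 and 97.8 to 17, 19.5 and 19.8 (log2 fold change -2.15, SE 0.18, adjusted p = 1.78e-09). Slc37a2, a sugar phosphate exchanger known from macrophages, went from 392, 431 and 389 to 79.6, 79.2 and 124 (log2 fold change -2.09, SE 0.14, adjusted p = 5.69e-11). Each of these falls left the rmCIRP libraries well below the PBS libraries. Fmnl1, a formin of leukocytes, went from 223, 297 and 237 to 47.8, 46.3 and 64.2 (log2 fold change -2.26, SE 0.15, adjusted p = 6.38e-11). Among 12 chemokine, formyl-peptide and anaphylatoxin receptors, 4 were higher and 4 lower. Ccrl2, a non-signalling chemokine binder, rose from 24.1, 23 and 29.1 to 535, 643 and 779 (log2 fold change 4.68, SE 0.20, adjusted p = 2.69e-14), and the groups did not overlap.

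The macrophage identity genes did not move as a block. Of 18 tested, 6 were higher and 11 lower, with a median log2 fold change of -0.32. The summed level with rmCIRP was 0.842 of that with PBS, but most of the sum was Lyz2, so this ratio mainly follows that gene. Fcgr1, a high-affinity antibody receptor, went from 58.7, 63.9 and 59.3 to 298, 252 and 327 (log2 fold change 2.26, SE 0.14, adjusted p = 2.1e-11). Adgre1, the F4/80 antigen, went from 1863, 2204 and 2032 to 4136, 3939 and 3965 (log2 fold change 0.98, SE 0.08, adjusted p = 9e-10). Lyz2, or lysozyme, fell from 74007, 80102 and 80417 to 63049.7, 60431 and 63905 (log2 fold change -0.33, SE 0.07, adjusted p = 0.000716), and Csf1r, the receptor for the macrophage growth factor, had a log2 fold change of -0.52 (SE 0.07). The chemokine receptor gene Cx3cr1 had a log2 fold change of -1.94 (SE 0.35). Which cells of the cultures carried these changes was not tested. Genes of other cell types were scarce by comparison. Summed over the list, neutrophil genes had 163 to 196 normalized counts with PBS and 451 to 488 with rmCIRP. Most of that was S100a8, Csf3r and Camp, while Ly6g, S100a9, Elane and Ngp had at most 2 reads in each library. Lymphocyte genes had 141 to 193 and 46.4 to 76.4, mostly Trac, while Cd3d, Cd3e and Cd3g had at most 1 read in each library. Epithelial genes had 70.8 to 117 and 34.0 to 43.5, mostly Cdh1, Krt8 and Krt18. Endothelial genes had 747 to 1049 and 788 to 949, and mesothelial genes 765 to 806 and 640 to 679.

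Among matrix genes, a few enzymes that cut matrix rose by large factors, while genes of contraction and elastic fibres fell. Of 27 metalloproteinase and ADAMTS genes, 10 were higher and 15 lower. Mmp13, a collagenase, had 4604, 5482 and 4323 normalized counts with PBS and 40177, 40211 and 45497 with rmCIRP (log2 fold change 3.12, SE 0.24, adjusted p = 4.99e-10). Mmp3, or stromelysin 1, went from 5055, 7841 and 6276 to 33151, 27579.9 and 39147 (log2 fold change 2.38, SE 0.24, adjusted p = 5.46e-08). Mmp10, or stromelysin 2, had a log2 fold change of 2.95 (SE 0.29). The groups did not overlap for any of these 3 genes. The proteoglycan-cutting Adamts1 went the other way, from 4973, 5542 and 5734 to 2509.6, 2121 and 2172 (log2 fold change -1.26, SE 0.09, adjusted p = 1.72e-10), and so did Adamts5 at -1.16 (SE 0.17). Timp1, an inhibitor of these enzymes, had a log2 fold change of 0.60 (SE 0.07), and Timp3, which is bound to matrix, had -0.54 (SE 0.07). Serpinb2, an inhibitor of plasminogen activators, rose from 4747, 6529 and 4087 to 57365, 54192 and 63452 (log2 fold change 3.50, SE 0.44, adjusted p = 1.25e-06).

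Of 18 contractile genes of myofibroblasts and smooth muscle, 17 were lower, against 24.1% of all genes tested, and none higher, at a median log2 fold change of -0.44. The groups did not overlap for 17 of them. Lmod1, which starts actin filaments in smooth muscle, had 9199, 8323 and 9319 normalized counts with PBS and 4331, 4259 and 3711 with rmCIRP (log2 fold change -1.13, SE 0.19, adjusted p = 8.14e-05). Cnn1, or calponin, went from 49884, 46361 and 48745 to 30767, 30147 and 28011 (log2 fold change -0.71, SE 0.13, adjusted p = 0.000146). Mylk, the kinase that starts contraction, had -0.92 (SE 0.17). Acta2, the smooth muscle actin by which myofibroblasts are often known, moved less, from 318757, 295742 and 312147 to 267072, 277497 and 247518 (log2 fold change -0.23, SE 0.10, adjusted p = 0.0773), and its call was lost when PBS library 1 or 3 or rmCIRP library 1 or 3 was left out. The remaining member, Tagln, did not pass the threshold at -0.22 (SE 0.11). Of 17 elastic fibre genes, 11 were lower and 1 higher. Eln, the elastin precursor, had 1089, 1326 and 1502 normalized counts with PBS and 395, 257 and 272 with rmCIRP (log2 fold change -2.09, SE 0.28, adjusted p = 4.06e-06). It stood apart from the rest of its list, whose other called members lay between -0.46 for Mfap4, a call that 7 of the alternatives tried did not keep, and 0.35 for Emilin1.

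Collagen genes fell slightly for the most part. Of 11 fibrillar collagens, 6 were lower and 3 higher, and of 21 other collagens, 13 were lower and 3 higher, with medians of -0.29 and -0.30. Col1a1, the main chain of collagen I, fell from 243961, 246260 and 236246 to 198032, 188840 and 177896 (log2 fold change -0.37, SE 0.08, adjusted p = 0.00082). Col6a3, a chain of beaded filaments, had a log2 fold change of -0.82 (SE 0.06). Col5a3, a minor fibrillar chain, rose from 5753, 6328 and 5069 to 14860.2, 15946 and 16762 (log2 fold change 1.47, SE 0.16, adjusted p = 2.4e-07). Col13a1, a transmembrane collagen, had 1.85 (SE 0.49). In the matricellular list, 3 of 16 were higher and 7 lower. Tnc, or tenascin C, which is laid down at injury, rose from 276178, 300969 and 276369 to 406879, 381553 and 405962 (log2 fold change 0.48, SE 0.07, adjusted p = 2.23e-05). Ccn5 fell from 7708, 8869 and 8672 to 2986, 2828 and 2596 (log2 fold change -1.59, SE 0.15, adjusted p = 1.59e-08), and Ccn2, long known as connective tissue growth factor, had -0.29 (SE 0.09). Fibroblast identity genes had a median of -0.25, with 8 of 12 lower and 2 higher.

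**Figure D4:**
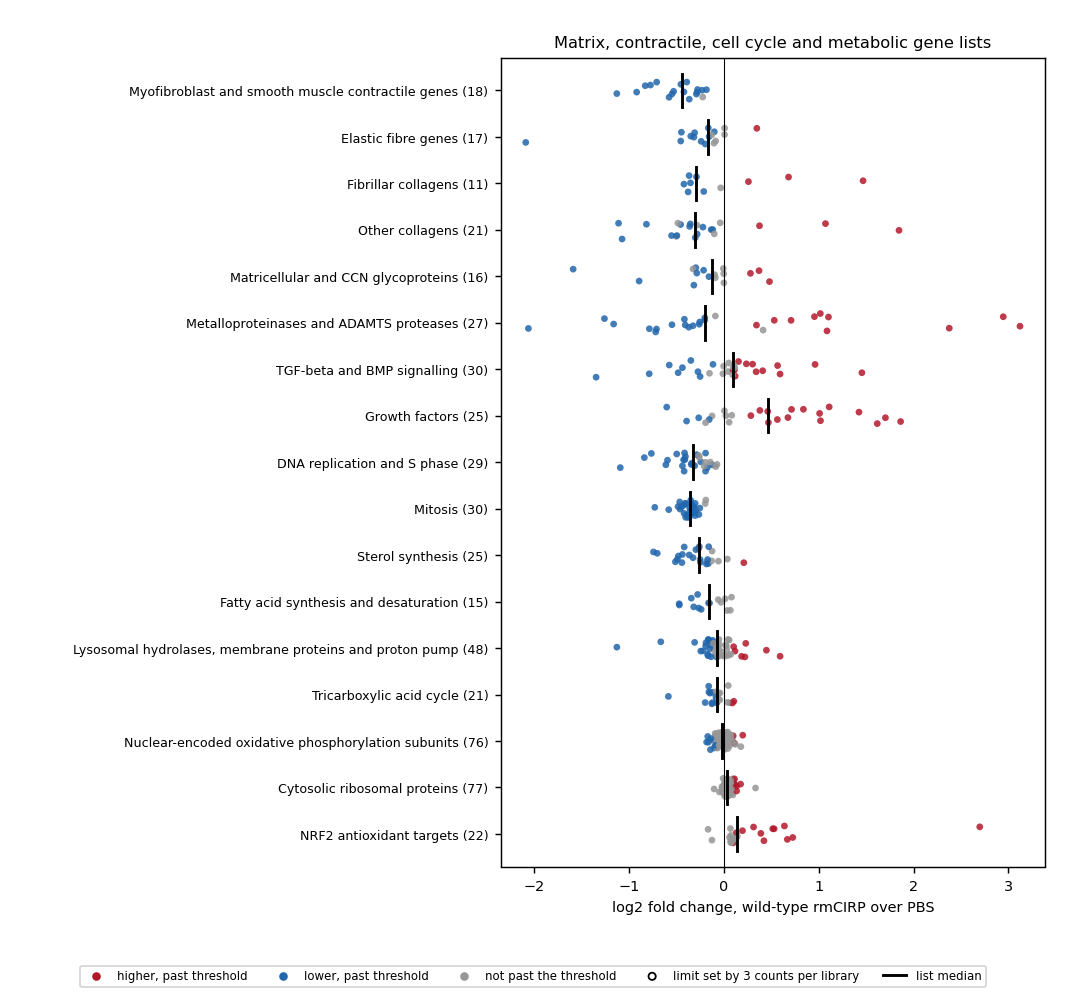
Log2 fold change with rmCIRP against PBS (horizontal axis) of each member tested in 17 matrix, contractile, cell cycle and metabolic gene lists (rows, number tested in brackets), coloured by whether it passed the threshold, with the list median as a bar. Col2a1, with at most 3 counts in every library of a treatment, is left out. Elastin, at -2.09, lies far from the rest of the elastic fibre list, and no mitotic or S phase gene was called higher.

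Signals to neighbouring cells changed in both directions. Of 30 TGF-β and BMP genes, 12 were higher and 9 lower, or 5 lower without rmCIRP library 3. Tgfb1 rose from 3899, 4310.0 and 3817 to 5773, 6127 and 6282 (log2 fold change 0.59, SE 0.08, adjusted p = 3.1e-06). Tgfb3 fell from 13781, 12734 and 14237 to 5681, 5440.5 and 4932 (log2 fold change -1.35, SE 0.13, adjusted p = 2.95e-08). The ligand genes Bmp2 and Inhba were higher, at 1.45 (SE 0.44) and 0.96 (SE 0.16). Of 25 growth factor genes, 15 were higher and 4 lower, with a median of 0.46. Ereg, or epiregulin, a ligand of the EGF receptor, went from 20101, 29154 and 23634 to 82418, 73076 and 82639 (log2 fold change 1.70, SE 0.31, adjusted p = 0.000142). Its relative Areg had 1.86 (SE 0.36), and Pdgfb, a mitogen of mesenchymal cells, had 1.62 (SE 0.13). Igf1 fell, at -0.60 (SE 0.06). Of 22 Wnt and hedgehog genes, 3 were higher and 8 lower, with Wnt11 at 0.71 and Wnt4 at -1.62.

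Cell cycle genes were lower by small factors. Of 29 genes of DNA replication and S phase, 22 were lower and none higher, and of 30 mitotic genes, 28 were lower and none higher, at medians of -0.33 and -0.36. Mki67, the proliferation antigen, had 2269, 1631 and 2125 normalized counts with PBS and 1488, 1641 and 1456 with rmCIRP (log2 fold change -0.40, SE 0.09, adjusted p = 0.00111). PBS library 2 lay within the range of the rmCIRP libraries. Ccna2, or cyclin A, had a log2 fold change of -0.58 (SE 0.12), and Anln, a ring protein of dividing cells, had -0.73 (SE 0.12). The groups did not overlap for 19 of the 30 mitotic and 17 of the 29 S phase genes, beside 50.8% of all genes tested. Without PBS library 1, the counts of lower genes were 13 of 30 and 14 of 29.

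Among metabolic lists, sterol synthesis genes were mostly lower. Of 25 sterol synthesis genes, 19 were lower and 1 higher, at a median log2 fold change of -0.26. The 1 higher was Sc5d, at 0.21 (SE 0.04). Hmgcs1, whose promoter is shown above and which feeds the mevalonate pathway, went from 1425, 1326 and 1457 to 986, 961 and 1013 (log2 fold change -0.51, SE 0.08, adjusted p = 5.06e-05). The groups did not overlap. Msmo1, an enzyme that removes methyl groups from sterols, had a log2 fold change of -0.74 (SE 0.10). A separate list of cholesterol efflux and liver X receptor genes had 4 called members. Its Ch25h, which makes the antiviral oxysterol 25-hydroxycholesterol, rose from 1879, 2888 and 2453 to 7314, 6267 and 6587 (log2 fold change 1.48, SE 0.12, adjusted p = 2.78e-09). In that list Abca1 and Abcg1 did not pass the threshold, at 0.13 and 0.12. Of 15 fatty acid genes, 9 were lower and none higher. Of 22 genes in the list of NRF2 antioxidant targets, 12 were higher and none lower, at a median of 0.13. Those 12 include the gene of NRF2 itself and that of its inhibitor. Nqo1 did not pass the threshold, at 0.09 (SE 0.09). Slc7a11, the cystine carrier, had the largest rise of the list, from 582, 641 and 666 to 3941, 4104 and 4249 (log2 fold change 2.70, SE 0.23, adjusted p = 2.55e-09). Hmox1, which degrades haem, had 0.72 (SE 0.19). Of 26 endoplasmic reticulum folding and stress genes, 14 were higher and none lower, at a median of 0.13. Of 16 iron and metallothionein genes, 10 were higher and 4 lower, with Mt2, a metal-binding protein, at 1.37 and the iron exporter Slc40a1 at -0.80. The subunits of oxidative phosphorylation encoded in the nucleus moved little, with 3 of 76 higher, 10 lower (6 without rmCIRP library 2) and a median of -0.02, like that of all genes. The median of 77 cytosolic ribosomal proteins was 0.04 and changed sign, to -0.01, when libraries were scaled by upper quartiles. Ribosomal protein genes share reads with many pseudogenes.

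The remaining lists held calls in both directions or few calls. Of 14 AP-1, EGR and ATF transcription factors, 8 were higher and 3 lower. Batf2, a partner of interferon regulatory factors, had 5.77, 4.99 and 3.12 normalized counts with PBS and 89.1, 95.7 and 99.8 with rmCIRP (log2 fold change 4.31, SE 0.33, adjusted p = 6.37e-10), whereas Fos, a classical immediate early gene, went from 533, 588 and 547 to 394, 287 and 339 (log2 fold change -0.72, SE 0.12, adjusted p = 3.92e-05). In both genes the treatments stood apart, in opposite directions. Of 22 mesenchymal transcription factors, 7 were higher and 7 lower, from Osr1 at -1.15 (SE 0.17) to Meox1 at 1.42 (SE 0.22). Of 19 integrin genes, 6 were higher and 8 lower, with Itga2, a collagen receptor chain, at 1.41 (SE 0.26) and Itga1, another such chain, at -0.69 (SE 0.12). Of 13 scavenger and efferocytosis receptors, 3 were higher and 6 lower. Marco, which binds particles and bacteria, rose from 824, 1015 and 1023 to 3387, 3152 and 3328 (log2 fold change 1.78, SE 0.10, adjusted p = 5.81e-12), and Mertk, which takes up dying cells, had -0.66 (SE 0.12). Of 15 purinergic and adenosine genes, 5 were higher and 6 lower. The adenosine receptor genes Adora2a and Adora2b had 1.08 (SE 0.14) and 1.01 (SE 0.12), and Nt5e, the ectoenzyme that makes adenosine, had -0.84 (SE 0.12). Of 48 lysosomal genes, 7 were higher and 18 lower, with the protease Ctsc at 0.59 and Tfeb, a transcription factor for lysosomal genes, at -0.67. Of 17 small leucine-rich proteoglycan and hyaluronan genes, 5 were higher and 5 lower (8 and 4 with only the libraries compared), with Tnfaip6 at 0.83 and Fmod at -0.76. Of 22 collagen processing genes, 2 were higher and 9 lower, with the lysyl oxidase gene Loxl3 at -0.81. Of 20 cell cycle inhibitors and p53 targets, 5 were higher and 7 lower, with Gadd45g at -1.19 and Cdkn1a, or p21, at 0.15. Of 18 clock genes, 3 were higher and 5 lower, led by Npas2 at -1.37. Of 23 glycolysis genes, 6 were higher and 6 lower, led by the glucose carrier gene Slc2a6 at 1.68, and without PBS library 1 these counts were 9 and 3. Of 20 hypoxia genes, 6 were higher and 1 lower, with Vegfa at 0.67 and Car9 at -0.57. Of 21 tricarboxylic acid cycle genes, 2 were higher and 11 lower. The lower ones numbered 4 without PBS library 1 or rmCIRP library 2, 7 without PBS library 2 and 6 without rmCIRP library 3. With upper-quartile scaling they numbered 15. Of 10 mitochondrially encoded genes, 1 was higher and none lower.

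The gene of the ligand itself was lower. Cirbp, which encodes CIRP, had 475, 462 and 458 normalized counts with PBS and 331, 342 and 337 with rmCIRP (log2 fold change -0.47, SE 0.09, adjusted p = 0.000148). The 3 libraries of each treatment lay within a few percent of each other and did not overlap. Rbm3, its closest relative among cold-induced proteins, had 5588, 5350.3 and 5503 with PBS and 5418, 5561 and 5508 with rmCIRP, giving a log2 fold change of -0.00, with an SE of 0.03 and an adjusted p of 0.981. Those groups overlapped.

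WT cells were also given rmCIRP in the presence of rmTGF-β1. That comparison shares no library with the one above, and 42.2% of all genes passed the same threshold in it, 20.5% higher and 21.7% lower. Of the interferon-stimulated genes, 34 of 34 were higher there, at a median log2 fold change of 4.52. Of the contractile genes, 17 of 18 were again lower, at a median of -0.47. Of the mitotic genes, 12 of 30 were lower against 28 above, and of the S phase genes, 7 of 29 against 22. The difference between the comparisons was not tested. The 12 genes with the largest rises were also called higher with rmCIRP under rmTGF-β1, and the 12 with the largest falls were called lower. Eln had a log2 fold change of -1.52 there and Cxcl10 one of 7.02.

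In the libraries labelled TLR4-/-, the medians of the same lists were near 0. Tlr4 itself had 903 ± 20.2 normalized counts (SD, n = 3) in those given PBS and 718, 802 and 758 in the WT ones. The read count of the gene was thus higher under the TLR4-/- label. Reads summed over a gene do not show whether a working receptor was made, and the label was not tested. In the libraries labelled TLR4-/-, the median log2 fold change with rmCIRP was 0.14 for the interferon-stimulated genes and -0.02 for the Rel/NF-κB list. It was 0.02 for the contractile list and -0.09 for the mitotic list. The normalized counts of Cxcl10 there were 127 ± 109 with PBS and 95 ± 76.1 with rmCIRP. Eln had 479 ± 42.8 with PBS and 495 ± 61.3 with rmCIRP. The rmCIRP response of these libraries minus that of the WT libraries described above, which it shares, passed the threshold for 31.4% of all genes and for 34 of 34 interferon-stimulated genes. The cultures of the genotypes were not alike before treatment. The 18 macrophage identity genes summed to between 332976 and 383473 normalized counts in the labelled TLR4-/- libraries with PBS, several times the WT level given above, and the part of this in the genotype difference was not tested.

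**Figure D5:**
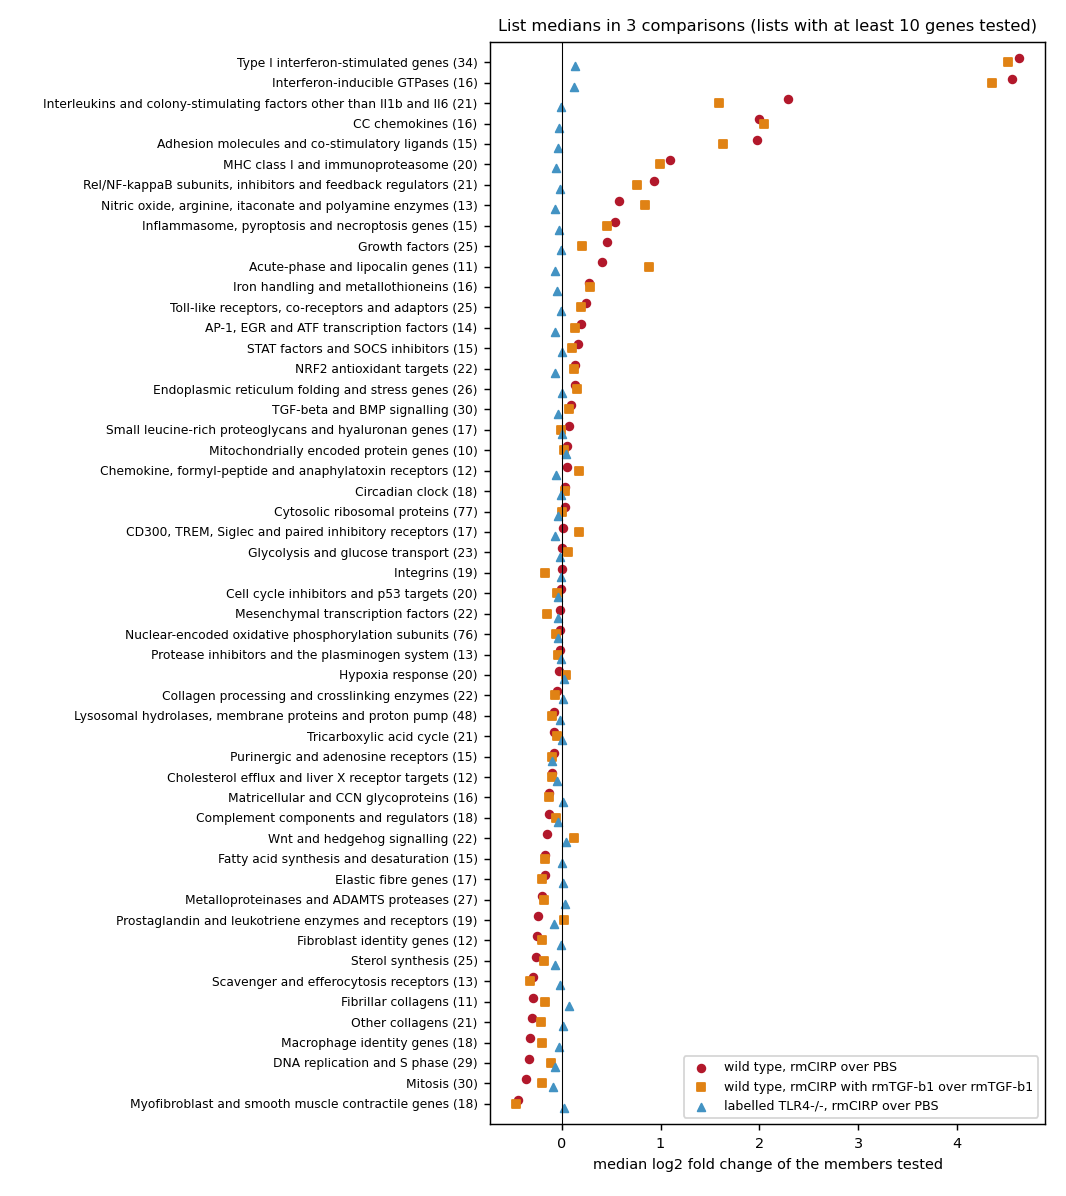
Median log2 fold change (horizontal axis) of the members tested in each of 52 gene lists with at least 10 genes tested (rows, number tested in brackets), for rmCIRP against PBS in WT cells (circles), rmCIRP with rmTGF-β1 against rmTGF-β1 in WT cells (squares) and rmCIRP against PBS in libraries labelled TLR4-/- (triangles). The triangles lie between -0.10 and 0.14, while the WT medians reach 4.63.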

How the data were processed

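The data were raw read counts per gene from bulk RNA sequencing of the 24 libraries, 3 for each of 8 conditions. The authors prepared libraries from total RNA with a stranded kit, aligned the reads with STAR and counted them per GENCODE gene with HTSeq, and the deposited counts were not normalized. The strand setting of the counting is not given in the sources used here, so genes that overlap an antisense gene are uncertain. The submitters' processing notes name the build NCBIM37, and promoter sequence was taken from RefSeq windows of GRCm38.p6 matched by symbol, so no coordinate of the files was used. Each file held 55291 gene names and 5 tally lines, which were left out. Those tallies hold reads not assigned to a single gene, which were 14.9 to 16.1% of the total in the 6 libraries.

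Genes were filtered with filterByExpr by condition, which kept 16258 of 34285 with a count in any library. Counts were fitted in edgeR 4.0.16 (R 4.3.3) with TMM factors, 1 mean per condition over all 24 libraries and the quasi-likelihood F-test, with Benjamini-Hochberg adjustment over all genes tested and a threshold of 0.1. The common biological coefficient of variation was 0.0571. Printed normalized counts were divided by median-of-ratios size factors. A fold against a treatment with at most 3 counts in every library was computed against 3 counts per library. On simulated counts for this comparison, with 16016 genes tested, the fit recovered 66% of genes changed 1.25-fold and 94% of genes changed 2-fold, and 11.6% of its calls were false. WT replicates differed by more than sampling noise in each pair (chi-square per degree of freedom from 3.77 to 7.66). The 3 same-numbered pairs of PBS and rmCIRP libraries had correlations of deviations of -0.05, -0.05 and -0.03.

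The members and lists were chosen with earlier results of these data known. Genes were named by rule: the 12 largest rises and 12 largest falls past the threshold among genes averaging 50 normalized counts or more, with no overlap and a proper symbol, leaving out Tnf, Il1b and Il6, and the 4 largest rises and falls past the threshold in each list, any member of a list of up to 12, or a member not past the threshold for contrast. The promoters shown were those of the 2 named genes with the largest rise whose window held the NF-κB motif, of the 1 with the largest rise that held the interferon motif, and of the 1 with the largest fall that held the sterol, E2F or CLEAR motif of its own list. Isg15, Irf7, Isg20, Gbp2, B2m, Rela, Ccl2, Il1rn, Csf3, Il33, Icam1, Vcam1, Lyz2, Csf1r, Cnn1, Acta2, Ccn2 and Mki67 fall outside the rule and were chosen after their values were seen. Alternatives were DESeq2 1.42.0, RLE or upper-quartile factors, no filter or a mean count of at least 10, only the libraries compared, the replicate number as a block, a log2 fold change of at least 1, and leaving out each library.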

Additional observations from a re-analysis of the deposited data

Results flagged for a closer look

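The log2 fold change with rmCIRP differed between the libraries labelled TLR4-/- and the WT libraries for 5113 genes, by the interaction term in edgeR's quasi-likelihood F-test, adjusted by Benjamini-Hochberg. This difference uses the same WT libraries that chose the genes below, so their values describe its size and are no independent support. As TLR4-/- label minus WT, the difference was -16.27 for Il12b, -8.65 for Ccl5, -8.72 for Ms4a4c, -8.29 for Cxcl10, -6.71 for Ifit3b, -7.25 for Il1a, -6.54 for Ifit3, -7.33 for Nos2, -7.03 for Ifi205, -7.94 for Rsad2, -7.13 for Slfn1 and -6.77 for Ifit1. Il12b, Ms4a4c and Slfn1 had at most 1 read in each WT PBS library, and their fitted values depend on the prior count. For the genes that fell in WT cells, it was 2.89 for Rab3il1, 2.58 for Cd300lb, 2.57 for Plxdc1, 2.46 for Cd300a, 2.25 for Alox5, 2.21 for Fmnl1, 2.21 for Tifab, 2.15 for Plcb2, 1.70 for Adra1d, 2.01 for Slc37a2, 2.15 for Eln and 1.88 for Tppp. No group had the 4 or more libraries needed to test a single library for standing apart.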

How the results depend on the processing

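The count of genes past the threshold in WT cells, 7130, was between 6372 and 7620 under the other tests, scalings, filters and sets of libraries, was 1021 with a log2 fold change of at least 1, and ranged from 5996 to 6584 when 1 library was left out. With the replicate number as a block it was 7155. The labels do not say whether same-numbered libraries share more than a number, and 3 libraries per treatment are too few to settle it. No pair had a correlation above 0.1, and no rmCIRP library correlated best with the PBS library of its own number. The block changed no count by over 1.5 times. The genotype difference gave 4533 to 5785 genes, and 4237 to 4934 with 1 library left out. The comparison under rmTGF-β1 gave 6039 to 7524, and 5858 to 6287. Of 408 genes recomputed, 348 kept their call or lack of one under every alternative, none reversed, and the 24 largest rises and falls were kept.

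Among list medians, upper-quartile scaling gave -0.095 for collagen processing, -0.21 for elastic fibres, 0.41 for growth factors, -0.057 for mesenchymal transcription factors, -0.065 for oxidative phosphorylation with 27 genes lower, 0.0096 for mitochondrially encoded genes, -0.12 for the tricarboxylic acid cycle, -0.010 for ribosomal proteins, -0.12 for lysosomal genes with 28 lower, 0.085 for endoplasmic reticulum genes, -0.28 for the cold-inducible pair and -0.20 for mesothelial genes. This scaling moved the median of all genes from -0.02 to -0.07. Without a filter on low counts, the median was 3.62 for ELR CXC chemokines, 0.98 for other CXC chemokines, 0.43 for nitric oxide and arginine genes, -0.46 for epithelial genes and -0.10 for lymphocyte genes, with more genes tested. With a mean count of at least 10, it was 0.047 for other CXC chemokines, 1.08 for nitric oxide and arginine genes, 0.0031 for cholesterol efflux, -0.057 for lysosomal genes, 2.15 for neutrophil genes and -0.10 for chemokine receptors. With only the libraries compared, it was 0.27 for STAT and SOCS genes, -0.12 for prostaglandin genes, 1.09 for nitric oxide and arginine genes, 0.0039 for cholesterol efflux, -0.056 for lysosomal genes, 2.15 for neutrophil genes and -0.10 for chemokine receptors.

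With 1 library left out, medians ranged from -0.23 to -0.13 for prostaglandin genes, -0.36 to -0.26 for other collagens, 0.42 to 0.51 for growth factors, -0.23 to -0.15 for fatty acid genes, -0.094 to -0.054 for the tricarboxylic acid cycle, -0.075 to -0.055 for lysosomal genes, -0.23 to -0.11 for mesothelial genes and -0.29 to -0.13 for scavenger receptors. Ribosomal proteins called higher numbered 7, or between 1 and 18 under the alternatives (15 without PBS library 1, 4 without PBS library 2 or rmCIRP library 1). Tricarboxylic acid cycle genes called lower numbered 11, or as few as 4, and 15 with upper-quartile scaling. Oxidative phosphorylation genes called lower numbered 10, or between 5 and 27. TGF-β and BMP genes called lower went from 9 to 5 without rmCIRP library 3. Causes were not tested. Genes with few reads, and folds against PBS libraries near 0, are limited by depth, and 3 libraries per treatment from a pool limit what the spread can show.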

Other observations

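Several gene families outside the lists were grouped by symbol after their values were seen, so their counts are a description. Over all genes tested, 19.8% were higher and 24.1% lower. Of 8 Schlafen genes tested, 8 were higher with rmCIRP, at a median log2 fold change of 3.04. Slfn1 had at most 1 read in each PBS library and 77.5, 116 and 124 normalized counts with rmCIRP, at least 35.3-fold higher against 3 counts per library. Of 12 PYHIN or Ifi200 genes, which encode DNA sensors and their relatives, 11 were higher and none lower, at a median of 4.62, and Ifi205 went from 3.85, 13 and 5.20 to 1005, 805 and 1496 normalized counts. Both families hold close copies among which reads may be split. Of 9 MS4A genes, 7 were higher, and of 13 PARP genes, 9 were higher and 1 lower. Genes of 3 other families were mostly called lower or not called. Of 30 Arhgap genes, 20 were lower and 5 higher, at a median of -0.26, and of 22 Arhgef genes, 13 were lower and 2 higher. Of 14 Krüppel-like factors, 8 were lower and 1 higher. Calls among 39 potassium channel genes were split, with 13 higher and 10 lower, at a median of -0.04.

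The genes of the interferons themselves were hardly counted. None of 20 interferon symbols passed the filter, and no interferon gene had more than 4 reads in a PBS library or more than 5 in an rmCIRP library. Ifnb1 had 0 reads in each PBS library and 1, 1 and 3 in the rmCIRP libraries, so a difference was not detectable at this depth. These counts stand beside the 34 of 34 interferon-stimulated genes that were higher in the same libraries at 24 h. Of 5 interferon receptor genes tested, 3 were higher and 1 lower, with Ifnar2 at 0.58, Ifnar1 at 0.30, Ifngr2 at 0.26, Ifngr1 at -0.10 and Ifnlr1, which did not pass the threshold, at -1.02 (SE 0.62).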
